A study of Rattus norvegicus with 21 samples.

Results

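The genes described here are 36 listed genes of glycolysis and of the response to low oxygen, taken by their symbols from a table of RNA-seq counts of rat pancreatic islets. Of these, 34 had an entry in the table, which holds 17025 genes, and all 34 were among the 12576 genes abundant enough to be tested. Pkm2, another name for the muscle pyruvate kinase gene Pkm, and Egln1, an oxygen-dependent prolyl hydroxylase gene, had no entry and are not analysed here. The members were chosen by name, with earlier results of these data already known. They comprise 3 transport genes, 14 genes of glycolytic enzymes, 6 regulators of flux, 2 genes of the oxygen sensor (Hif1a and Egln3) and 9 targets of hypoxia-inducible factor.

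Primary islets of Sprague Dawley rats were isolated on 3 occasions, each preparation pooled islets from 8 rats, and each pool was divided over the culture groups. Control islets were kept in 11 mM glucose without palmitate. Glucolipotoxic (GLT) islets received 27 mM glucose and 300 µM palmitate for 3 h or 24 h, alone or with 300 nM of compound D or E, and the labels give neither a structure nor a target for either compound. Each preparation gave 1 library to 3 h control, to 24 h GLT and to GLT plus compound D at either time, so that these had 3 libraries. Compound E has only 2 libraries at 24 h, from preparations 1 and 2, and only 1 at 3 h, from preparation 2. The remaining 6 libraries are disputed. The sample records call condition 2 the 24 h control and condition 3 the 3 h GLT group, and the deposited sample sheet calls condition 2 the 3 h GLT group and condition 3 the 24 h control. These groups, of 3 libraries each, are therefore called condition 2 and condition 3, and each comparison with them is read both ways. The fit has a term per preparation, so p-values rest on the scatter between libraries that is left after it. Because preparations were pools, that scatter does not measure the spread between rats.

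Glycolysis splits glucose into pyruvate. Glucose enters the cell through transporters, is phosphorylated, passes the committed step at phosphofructokinase and ends at pyruvate kinase, after which pyruvate either enters mitochondria through pyruvate dehydrogenase or is reduced to lactate and exported. In beta cells this route couples blood glucose to insulin release, and the lactate branch is normally kept low. When oxygen is short, prolyl hydroxylases no longer mark hypoxia-inducible factor (HIF) for destruction, and HIF binds short promoter and enhancer elements with the core letters ACGTG or GCGTG and raises transcription of glycolytic enzymes, of pyruvate dehydrogenase kinases and of genes such as Vegfa, Adm and Bnip3. Cultured islets lack blood flow and receive oxygen by diffusion.

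Of the 7 members called in the comparison with the most member calls below, 4 hold that core (Bnip3, P4ha1, Pfkp and Pfkl). Of all 30 members with a promoter entry, 18 (60%) hold it. Adm, which has the largest difference in that comparison, Egln3 and Gpi hold none. Shown are the promoters of the 3 with the largest differences among the 4 that hold the core. The letters are the 250 bases before the annotated start in RefSeq (assembly GRCr8, which is not the build the counts were made on), written 5′ to 3′ on the gene's strand, with each core named above, on either strand, in capitals. Bnip3 encodes a mitochondrial protein of mitophagy (chr1:203154963-203155212, minus strand, 4 cores, 2 of them within 1 CACGTG E box). P4ha1 encodes a collagen prolyl hydroxylase (chr20:27844796-27845045, plus strand, 2 cores), and Pfkp the platelet-type phosphofructokinase (chr17:68639563-68639812, plus strand, 1 core).
Bnip3: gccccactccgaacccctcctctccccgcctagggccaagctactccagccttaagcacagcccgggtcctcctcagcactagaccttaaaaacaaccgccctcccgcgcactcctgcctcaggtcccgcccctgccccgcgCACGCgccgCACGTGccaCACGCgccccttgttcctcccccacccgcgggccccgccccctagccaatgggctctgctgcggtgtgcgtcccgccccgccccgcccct
P4ha1: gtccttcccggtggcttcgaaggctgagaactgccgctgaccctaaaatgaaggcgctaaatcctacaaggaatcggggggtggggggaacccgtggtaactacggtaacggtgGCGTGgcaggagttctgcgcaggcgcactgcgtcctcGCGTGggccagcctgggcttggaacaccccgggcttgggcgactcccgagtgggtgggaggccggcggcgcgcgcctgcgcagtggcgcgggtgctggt
Pfkp: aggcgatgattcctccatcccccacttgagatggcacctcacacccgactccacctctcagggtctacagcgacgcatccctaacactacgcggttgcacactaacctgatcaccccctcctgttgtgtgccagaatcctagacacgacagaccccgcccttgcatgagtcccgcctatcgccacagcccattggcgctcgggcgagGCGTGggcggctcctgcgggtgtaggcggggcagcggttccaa

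Of the 34 members, 30 had a promoter in the RefSeq table, and Slc2a3, Pgk1, Bnip3l and Ndrg1 had no entry. At least 1 ACGTG or GCGTG, on either strand, stood in 18 of the 30 windows (60%), against 37.9% of all 27457 windows of the same length. ACGTG alone was present in 43.3% of member windows and 16.9% of all windows, and GCGTG in 43.3% and 27.2%. CACGTG, which contains ACGTG on both strands, was present in 16.7% and 5.79%. Adm, Egln3 and Gpi, which appear below beside Bnip3, P4ha1 and Pfkp, have none of these letters in their windows. A match is a string of letters and not a measured binding site.

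The libraries held 22.3 to 40.2 M counts in genes (median 27.8 M), of which the insulin genes Ins1 and Ins2 took 9.32% to 45.9%. Summed beta cell markers lay between 79500 and 633000 CPM (counts per M counts in tested genes after TMM scaling) in every library, and summed acinar markers at 1.32 to 11 CPM. Other cell types varied with the groups: 8 endothelial markers of 9 listed summed to 169 to 228 CPM in 3 h control, condition 2 and both 3 h compound groups, and to 27 to 110 CPM in condition 3 and the 24 h GLT groups, compounds included. Red cell markers (5 of 6) summed to 4.35 to 14.3 CPM in the former and 0.565 to 1.86 CPM in the latter, and stellate cell markers (8 of 8) summed to 1080 to 1510 CPM in condition 3, above the 343 to 911 CPM of every other library. In the endothelial and red cell sums, condition 2 lay with the undisputed 3 h groups and condition 3 with the 24 h groups. The sheet gives them these times, and the records give the reverse. Which naming is right was not tested. No defining marker of these lists was under 3 counts in every library. Their part in the results below was not tested, and in bulk RNA fewer cells of a type and less RNA per cell cannot be told apart.

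The library of preparation 2 in condition 3 stood apart. Reads with more than 1 alignment made up 23.4% of its column (4.92% to 8.51% in the others), and 127 genes with a median above 10 CPM fell below 1/30 of that median, against 0 genes in each other library. Members were among the genes that it nearly lacked. Tpi1, the triosephosphate isomerase gene, had 0 counts there against a mean of 705 CPM in the other condition 3 libraries, and Eno2, the neuronal enolase gene, had 8 counts (0.24 CPM against 295). Eno1 had 23.3 CPM against 350, and Gapdh 75.2 against 1110. In all, 8 of 34 members (23.5%) were under 50% of the mean of the other condition 3 libraries, against 13% of all tested genes, and 4 members (11.8%) were under 10% of it, against 4.13%. Such a value widens the shared estimate of spread for these genes in every comparison, so results are given with that library and, where they differ, without it.

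**Figure D1:**
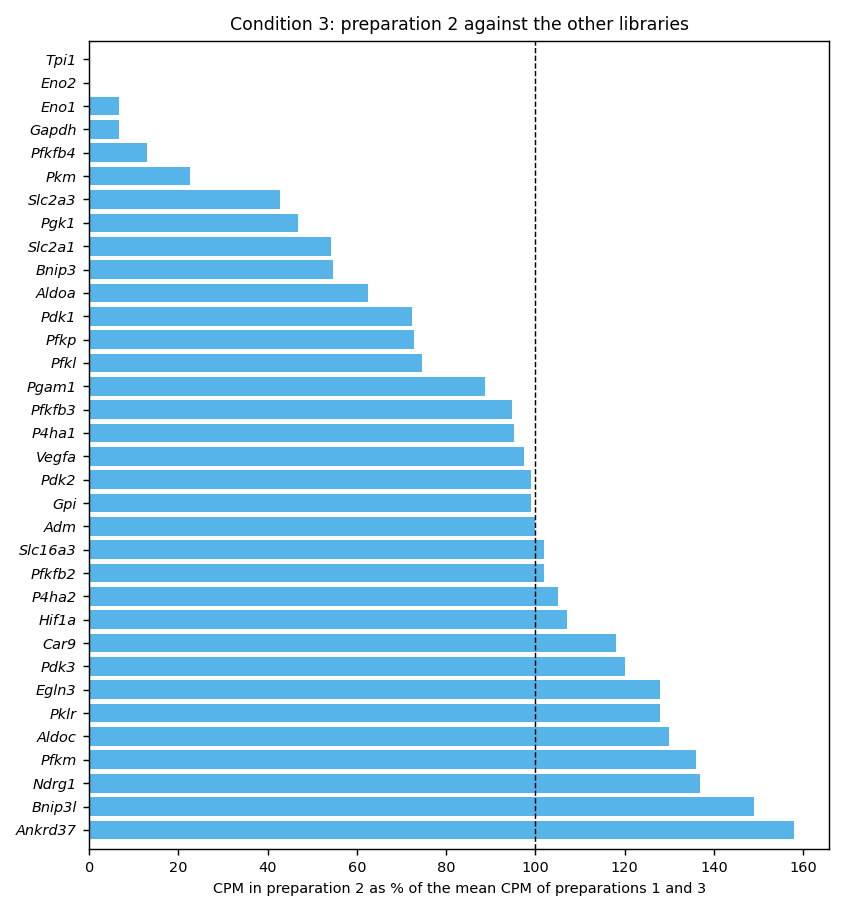
Level of each of the 34 members in the condition 3 library of preparation 2, as a percentage (x axis) of the mean CPM of the condition 3 libraries of preparations 1 and 3, with a dashed line at 100. Tpi1 and Eno2 sit at or near 0 and Eno1 and Gapdh at 6.67% and 6.79%, whereas Adm, Gpi and Pdk2 are close to the line.

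The comparison of 24 h GLT with condition 2 carried the most member calls. It asks what GLT culture changed at 24 h if condition 2 is the 24 h control, and what the longer GLT exposure changed if condition 2 is 3 h GLT. Of 34 members, 7 were higher and 0 lower in 24 h GLT at an adjusted p below 0.05 (edgeR's quasi-likelihood test with Benjamini-Hochberg adjustment over all genes, used throughout), against 3.63% of all tested genes called higher and 4.89% called lower. The 7 were 3 of the 9 HIF targets (Adm, Bnip3 and P4ha1), Egln3 of the oxygen sensor, and 3 of the 14 glycolytic enzymes (Gpi, Pfkl and Pfkp). The median log2 difference was 0.29 over the members and -0.02 over all genes, and 26 members were above 0.

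Adm, which encodes the vasodilator peptide adrenomedullin, had 15.1, 13.1 and 12.6 CPM in condition 2 and 61.2, 50.3 and 87.8 CPM in 24 h GLT (preparations 1, 2 and 3, the order used for all such values). All 3 GLT libraries lay above all 3 of condition 2. The fitted difference was 2.28 on the log2 scale (SE 0.55, 4.86-fold, adjusted p = 0.0211, higher in 3 of 3 preparations). Bnip3 had 228, 273 and 207 CPM in condition 2 and 747, 593 and 639 CPM in 24 h GLT. Its groups likewise did not overlap, and it rose by 1.48 (SE 0.33, 2.78-fold, adjusted p = 0.0139). P4ha1 had 104, 118 and 99 CPM against 237, 207 and 225 CPM, again without overlap, a difference of 1.05 (SE 0.26, 2.08-fold, adjusted p = 0.0226). The others of these 9 HIF targets did not pass. Vegfa, the vascular growth factor gene, differed by 0.27 (SE 0.22), Bnip3l, the paralogue of Bnip3, by 0.28 (SE 0.195), and Ndrg1, a stress-response gene, by 0.15 (SE 0.18).

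Egln3 encodes the prolyl hydroxylase that is itself a HIF target. It had 8.38, 11.4 and 8.51 CPM in condition 2 and 23.3, 23.2 and 28.3 CPM in 24 h GLT, with no overlap between the groups. The difference was 1.43 (SE 0.35, 2.7-fold, adjusted p = 0.0226). Hif1a, the oxygen-regulated HIF subunit, which is controlled mainly at the protein level, had 131, 116 and 161 CPM in condition 2 and 134, 104 and 138 CPM in 24 h GLT. Its groups overlapped, and the difference of -0.11 (SE 0.19) did not pass.

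Among the enzymes, Pfkp had 43.7, 50.3 and 41.3 CPM in condition 2 and 96.5, 89.2 and 163 CPM in 24 h GLT. The groups did not overlap, and preparation 3 had the highest value. The difference was 1.32 (SE 0.34, 2.51-fold, adjusted p = 0.0258). Gpi, the glucose-6-phosphate isomerase gene, had 223, 264 and 183 CPM against 434, 462 and 394 CPM, without overlap, and rose by 0.96 (SE 0.23, 1.94-fold, adjusted p = 0.0204). Pfkl, the liver-type phosphofructokinase gene, had 108, 139 and 132 CPM against 193, 225 and 250 CPM, also without overlap, and rose by 0.82 (SE 0.22, 1.77-fold, adjusted p = 0.0317). The muscle-type Pfkm differed by 0.20 (SE 0.14) and did not pass.

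Without the condition 3 library of preparation 2, 11 members passed in the same comparison, all higher, including the same 7 (4.16% of all genes called higher in that fit). The 4 added were enzymes that the library had nearly lost or that were low in it. Tpi1 had 479, 610 and 364 CPM in condition 2 and 1000, 1040 and 1060 CPM in 24 h GLT, a narrow band above every condition 2 library, and its difference was 1.11 (SE 1.22, adjusted p = 0.658) with that library and 1.14 (SE 0.27, adjusted p = 0.0175) without it. For Eno2 the values were 149, 186 and 143 CPM against 314, 349 and 327 CPM, and the difference without the library was 1.06 (SE 0.23, adjusted p = 0.0114). Gapdh, whose product oxidises glyceraldehyde 3-phosphate, had 825, 933 and 906 CPM against 1490, 1780 and 1710 CPM and a difference without the library of 0.90 (SE 0.21, adjusted p = 0.0173). Pgk1, the first ATP-yielding enzyme of the pathway, had 247, 273 and 195 CPM against 476, 446 and 437 CPM and a difference of 0.94 (SE 0.23, adjusted p = 0.0219). None of these 4 pairs of groups overlapped. Genes called between groups of 3 libraries are selected for such a gap, so it adds no support to the calls here or above. Without preparation 1 as a whole, or without preparation 3, 0 members passed in this comparison, and the 7 differences then ranged from 0.78 to 2.41 with adjusted p from 0.133 to 0.334. Without preparation 2, 14 passed, the 7 included. The share of all genes called in that fit is not given here, so the 14 is not read as a result about the members.

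**Figure D2:**
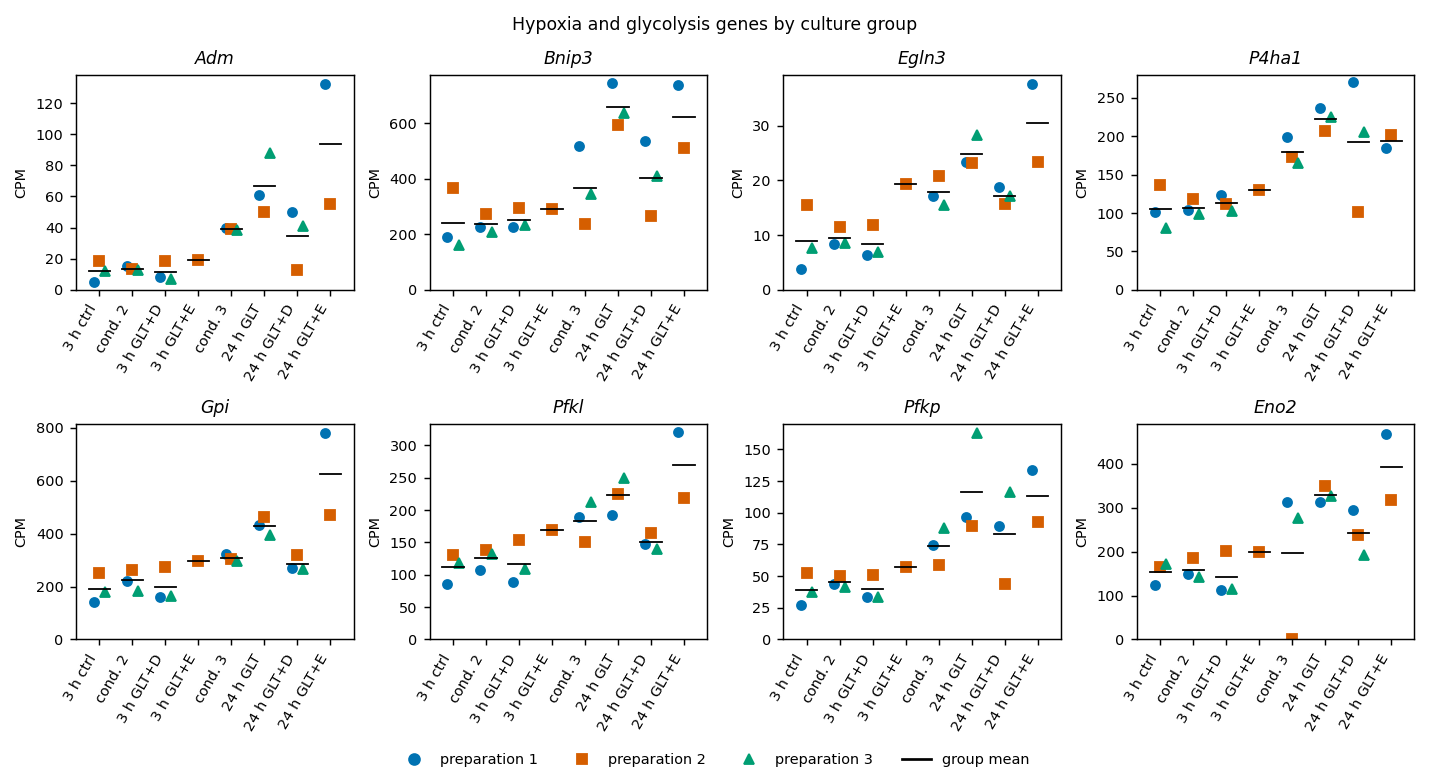
CPM (y axis) of Adm, Bnip3, Egln3, P4ha1, Gpi, Pfkl, Pfkp and Eno2 in each library by culture group, with points for the 3 preparations and a line at the group mean. In 24 h GLT every library lies above every condition 2 library for all 8 genes, and the condition 3 library of preparation 2 is near 0 for Eno2.

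The regulators of flux gave 0 calls in this comparison by edgeR, in either direction. An unadjusted p below 0.05 was found for 2 of them and for 2953 of all 12576 genes. Pfkfb3, a bifunctional enzyme gene whose product activates phosphofructokinase through fructose 2,6-bisphosphate, had 20.1, 14.3 and 42.5 CPM in condition 2 and 11.5, 9 and 15.6 CPM in 24 h GLT. It was lower in every preparation, though the groups overlapped, and the difference of -0.99 (SE 0.44, adjusted p = 0.186) did not pass. Pdk1, a kinase gene that restrains pyruvate dehydrogenase, had 30, 30.7 and 25.9 CPM against 45.9, 42.2 and 40.4 CPM without overlap, a difference of 0.57 (SE 0.22, adjusted p = 0.133). The 3 transport genes were above 0 without passing, with Slc2a1, the basal glucose transporter gene, at 0.38 (SE 0.33), the high-affinity Slc2a3 at 0.20 (SE 0.41), and Slc16a3, a lactate exporter gene, at 0.29 (SE 0.40).

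The comparison of condition 3 with 3 h control asks for the early GLT response if condition 3 is 3 h GLT, and for the effect of culture time in control medium if it is 24 h control. By edgeR 0 of 34 members passed, against 0.692% of all genes called. An unadjusted p below 0.05 was found for 15 members and for 1627 of all 12576 genes. DESeq2 called 1 member and 387 genes. The members' median log2 difference was 0.43 against -0.03 over all genes, and 28 of 34 were above 0. Adm had 4.93, 18.4 and 12 CPM in 3 h control and 39.7, 39.3 and 38.7 CPM in condition 3. The 3 condition 3 libraries stood within 1 CPM of each other and above all control libraries, and the difference was 1.73 (SE 0.54, adjusted p = 0.171). Egln3 had 3.86, 15.5 and 7.69 CPM against 17.1, 20.9 and 15.6 CPM, which did not overlap by a small margin, a difference of 1.06 (SE 0.35, adjusted p = 0.201). Aldoc, the brain-type aldolase gene, had 4.68, 5.48 and 5.05 CPM against 9.42, 11.3 and 7.91 CPM, a difference of 0.90 (SE 0.29, adjusted p = 0.188). Without the condition 3 library of preparation 2, 0 members again passed, against 0.175% of all genes. In that fit 20 members had an unadjusted p below 0.05. No such count over all genes is given for it here, so the 20 is not read as a result about the members. The median over the 14 enzymes went from 0.433 to 0.759. Without both that library and the 24 h compound E library of preparation 1, 4 members passed, all higher: Pfkl (0.97), Gpi (0.89), Aldoa (0.86) and Eno2 (1.04), against 0.422% of all genes called higher in that fit.

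The comparison of 24 h with 3 h in GLT with compound D is undisputed. Of 34 members, 1 passed, against 6.11% of all genes, 3.07% higher and 3.05% lower. It was Pfkm, whose subunit is the muscle type of phosphofructokinase, with 67.9, 74.3 and 52.3 CPM at 3 h and 92.2, 122 and 84.2 CPM at 24 h. The groups did not overlap and the difference was 0.61 (SE 0.14, 1.53-fold, adjusted p = 0.019, higher in 3 of 3 preparations). The members' median was 0.34 against 0.02 over all genes, and 27 of 34 were above 0. Egln3 had 6.3, 11.8 and 6.84 CPM at 3 h and 18.8, 15.7 and 17.2 CPM at 24 h, without overlap, a difference of 1.11 (SE 0.35, adjusted p = 0.0763). Adm had 7.96, 18.6 and 7.23 CPM at 3 h and 50, 12.8 and 41.1 CPM at 24 h. Preparation 2 went the other way, and the difference of 1.60 (SE 0.55, adjusted p = 0.101) did not pass.

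Preparation 2 also went against the others in this comparison for Bnip3 (294 CPM at 3 h and 267 at 24 h), P4ha1 (112 and 102), Pfkp (51.1 and 43.6) and Slc2a1 (45.9 and 37.2), each of which was higher at 24 h in preparations 1 and 3. Without the condition 3 library of preparation 2, 2 members passed, Pfkm and Gapdh (0.82, SE 0.21, adjusted p = 0.0311), against 3.33% of all genes called higher. Without the 24 h compound E library of preparation 1 the 2 were Pfkm and Egln3 (1.13, SE 0.31), against 4.52% of all genes called higher, and without both libraries 9 passed, 7 higher (Gpi, Pfkm, Pfkp, Aldoa, Gapdh, Eno2 and Egln3) and 2 lower (Pfkfb3 and Eno1), against 5.45% and 5.91% of all genes. The call for Pfkm was lost without preparation 1, 2 or 3 (adjusted p = 0.134, 0.0622 and 0.232) at differences of 0.57 to 0.70.

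These 3 comparisons share no library: condition 3 against 3 h control, 24 h against 3 h with compound D, and 24 h GLT against condition 2. By the sheet each sets 24 h against 3 h within 1 treatment, and by the records the first and the last set GLT against control at 3 h and at 24 h. A difference above 0 in all 3 was found for 23 of 34 members (67.6%), against 23.9% of all genes. The count was 23 again without the condition 3 library of preparation 2 (24.8% of all genes) and 20 when libraries were scaled by size alone (21.4%). By role it was 11 of 14 glycolytic enzymes, 8 of 9 HIF targets, 2 of 3 transport genes, 1 of 6 flux regulators (Pfkfb2, all within 0.12 of 0) and Egln3 of the oxygen sensor. Ankrd37, an ankyrin-repeat HIF target, was the exception among these 9 targets, at 0.26, -0.30 and -0.17. Each member has 1 role, so the 9 leave out HIF targets counted under other roles. Egln3 and Pfkfb4 are among these, as are glycolytic enzymes and pyruvate dehydrogenase kinases. The 8 of 9 is therefore not a count over all HIF targets. Pfkfb4, counted as a flux regulator, was at -1.38, -0.72 and -0.64. A difference below 0 in all 3 was found for 4 members, Pfkfb3, Pfkfb4, Eno1 and Hif1a, against 26.7% of all genes. No p-value was computed for these counts.

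Pfkfb3 was at -1.0 (SE 0.45), -1.24 (SE 0.44) and -0.99 (SE 0.44) in them, the lowest member in the last pair but above Pfkfb4 (-1.38) and Eno1 (-1.02) in the first, and none of its values passed (adjusted p = 0.355, 0.114 and 0.186). Eno1, the ubiquitous enolase gene, differed from its neuronal counterpart Eno2. Eno1 had 448, 758 and 415 CPM at 3 h with compound D and 325, 389 and 313 CPM at 24 h, lower in each preparation and without overlap, at -0.66 (SE 0.60, adjusted p = 0.551) or, without the condition 3 library of preparation 2, -0.63 (SE 0.21, adjusted p = 0.0895). Eno2 over the same libraries had 112, 201 and 116 CPM and then 296, 238 and 193 CPM, higher in each preparation. The difference between the enolases was not tested. Glycolytic genes such as Gapdh and Eno1 have near-identical processed copies elsewhere in the genome, between which reads could be split or lost by the counting, so their values are uncertain.

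**Figure D3:**
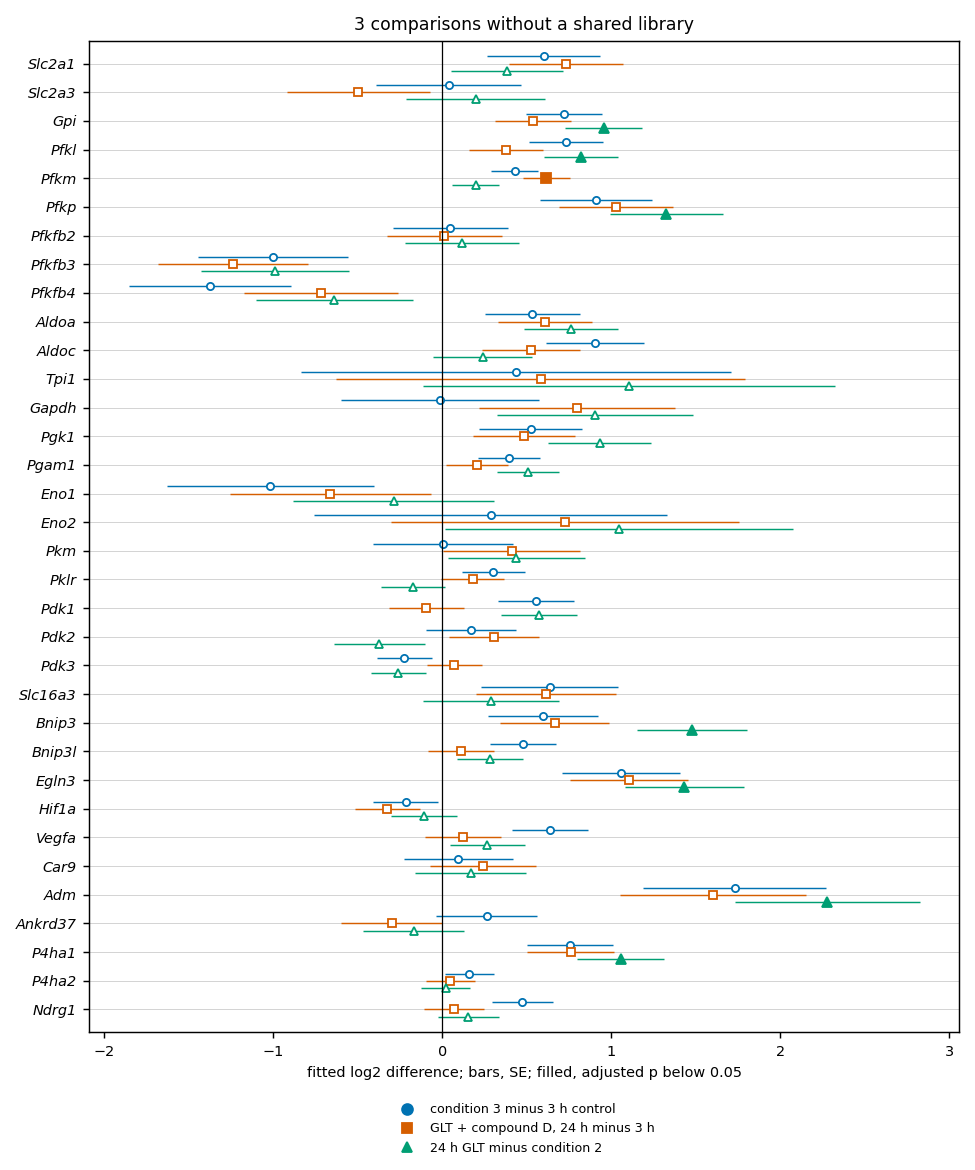
Fitted log2 difference (x axis) of each of the 34 members in 3 comparisons that share no library, with SE bars and filled symbols for an adjusted p below 0.05. Most symbols lie to the right of 0, with Adm furthest right, and Pfkfb3, Pfkfb4 and Eno1 lie to the left in all 3.

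Condition 2 against 3 h control had 0 member calls by edgeR, against 2.31% of all genes. An unadjusted p below 0.05 was found for 3 members and for 1659 of all 12576 genes. DESeq2 called 0 members and 590 genes. This comparison is the effect of time in control medium by the records and of 3 h GLT by the sheet. The members' median was 0.23 against -0.02 over all genes. Scaling by library size alone took the number of members above 0 from 25 to 14, and it moved the median of all genes to -0.29. With either scaling, 27 members lay above the median of all genes. Slc2a1 had 35.5, 67.9 and 70.2 CPM in 3 h control and 80.6, 84.8 and 144 CPM in condition 2, without overlap, a difference of 0.78 (SE 0.33, adjusted p = 0.312). Ndrg1 had 651, 574 and 445 CPM against 372, 326 and 429 CPM, lower in each preparation, a difference of -0.54 (SE 0.18, adjusted p = 0.163). Adm, Bnip3, Egln3 and P4ha1 differed by 0.20 (SE 0.53), -0.02 (SE 0.32), 0.13 (SE 0.35) and 0.02 (SE 0.26) with overlapping groups.

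A difference of the GLT effect between the times is estimated by 1 contrast whichever reading is taken: 24 h GLT minus condition 2, minus condition 3, plus 3 h control. Of the members 0 passed by edgeR, against 0.0716% of all genes, with 0 at an unadjusted p below 0.05 and 0 by DESeq2. Over all 12576 genes, these last counts were 1050 and 111. The lowest adjusted p of a member was 0.664, for Bnip3.

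The comparison of 24 h GLT with condition 3 reads as the 24 h GLT effect by the sheet and as 24 h against 3 h of GLT by the records. Of the members, 0 were higher and 4 lower, against 3.31% and 2.66% of all genes. The 4 were Ndrg1, Pdk2, Pklr and Pfkm, and none of them was among the 7 that rose against condition 2; both comparisons use the 24 h GLT libraries. Ndrg1 had 736, 938 and 633 CPM in condition 3 and 440, 426 and 402 CPM in 24 h GLT, without overlap, a difference of -0.86 (SE 0.18, adjusted p = 0.0146). Pklr, the pyruvate kinase gene of liver and red cells, had 77.4, 98.3 and 75.9 CPM against 45.4, 54.1 and 37.8 CPM, without overlap, a difference of -0.87 (SE 0.19, adjusted p = 0.016). Pdk2, another pyruvate dehydrogenase kinase gene, had 21.7, 20 and 18.8 CPM against 8.63, 11.1 and 9.1 CPM, the widest separation of the 4, a difference of -1.08 (SE 0.27, adjusted p = 0.0319). Pfkm had 78.9, 106 and 76.3 CPM against 54.3, 74.3 and 56.4 CPM and was just past the threshold at -0.49 (SE 0.14, adjusted p = 0.0498).

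Ndrg1 and Pklr had their highest values of all libraries in the condition 3 library of preparation 2. Without it 0 members passed by edgeR (1.74% of all genes called), with Ndrg1 at -0.69 (adjusted p = 0.0674), Pklr at -0.81 (0.069), Pdk2 at -1.16 (0.0699) and Pfkm at -0.43 (0.18), each an adjusted p. In that fit 5 members had an unadjusted p below 0.05, with no count over all genes to set beside them. With all libraries, 10 members and 2659 of all 12576 genes did. Without that library and the 24 h compound E library of preparation 1, 3 of the 4 passed, Ndrg1 at -0.71 (adjusted p = 0.0452), Pdk2 at -1.19 (0.0392) and Pklr at -0.81 (0.0485), against 1.42% of all genes called lower. Without preparation 2 as a whole, Pdk2 (-1.19, adjusted p = 0.0136) and Pklr (-0.88, adjusted p = 0.0196) passed, and without preparation 1 or 3 none of the members did. Pfkm lost its call in each of these fits. Stellate cell markers, highest in condition 3, differ between these groups too, and their part was not tested. The medians stood on the other side of 0. Over all members the median difference was 0.39, and 0.24 without that library, against -0.00355 over all genes. Aldoa, the main aldolase gene, had 823, 513 and 820 CPM in condition 3 and 1040, 1210 and 1130 CPM in 24 h GLT, without overlap, a difference of 0.64 (SE 0.28, adjusted p = 0.203). Bnip3 had 519, 237 and 347 CPM against the 747, 593 and 639 CPM given above, also without overlap, at 0.86 (SE 0.32, adjusted p = 0.131).

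**Figure D4:**
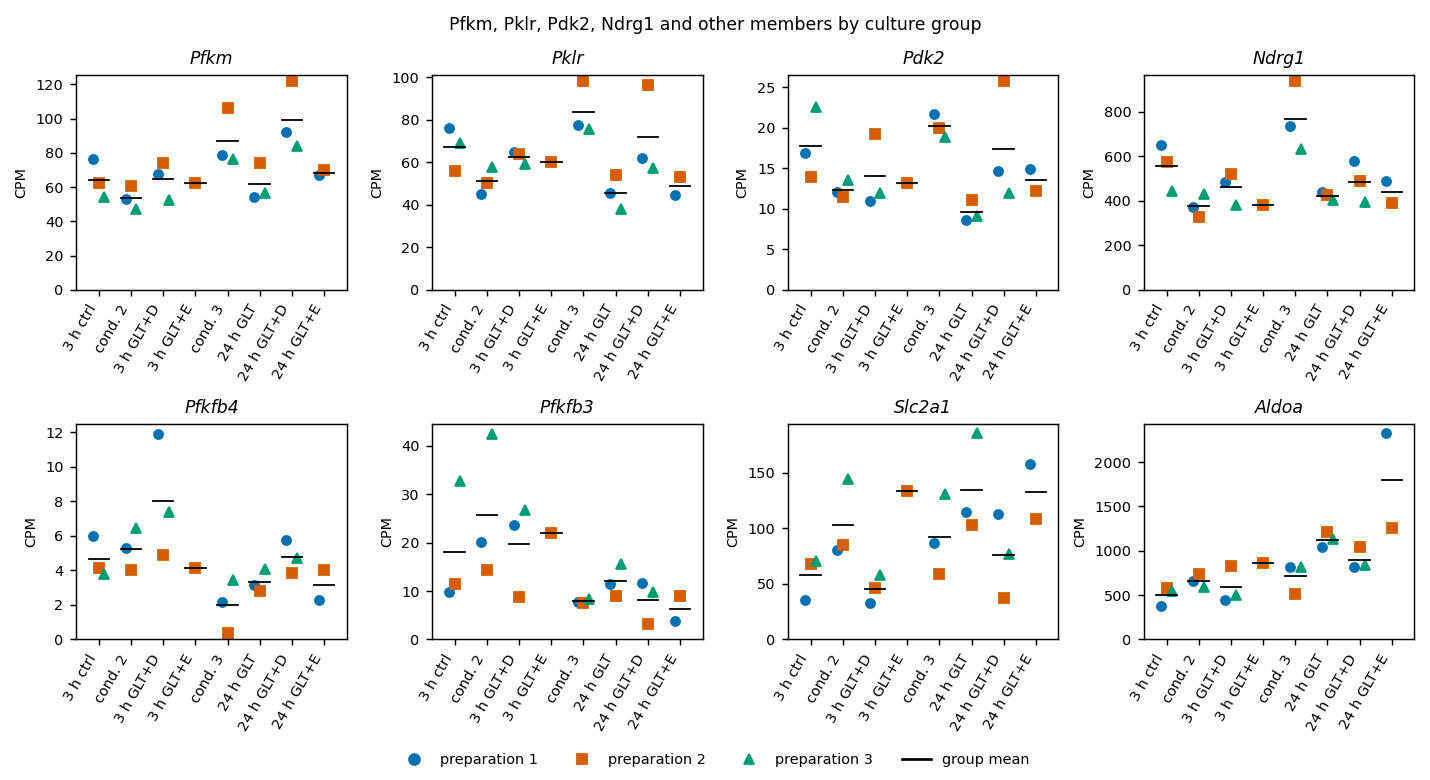
CPM (y axis) of Pfkm, Pklr, Pdk2, Ndrg1, Pfkfb4, Pfkfb3, Slc2a1 and Aldoa in each library by culture group, with points for the preparations and a line at the group mean. Pfkm, Pklr, Pdk2 and Ndrg1 are higher in condition 3 than in 24 h GLT in all 3 preparations, and Pfkm is higher in 24 h GLT with compound D than in 24 h GLT.

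Compound D was compared with GLT alone at 24 h, a comparison that no reading changes. Of the members 1 was higher and 0 lower, against 1.96% and 2.12% of all genes. Pfkm had 54.3, 74.3 and 56.4 CPM in 24 h GLT and 92.2, 122 and 84.2 CPM with compound D, and the groups did not overlap. The difference was 0.68 (SE 0.14, 1.6-fold, adjusted p = 0.0142, higher in 3 of 3 preparations). Without preparation 1, 2 or 3 it was 0.64, 0.68 and 0.74 with adjusted p of 0.169, 0.0649 and 0.131, so the call needed all 3.

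The members' median difference for compound D was -0.35 against 0.01 over all genes, and 25 of 34 members were below 0. Gpi was lower in each preparation, going from the 434, 462 and 394 CPM of 24 h GLT to 270, 319 and 267 CPM, without overlap, at -0.59 (SE 0.23, 95% interval -1.08 to -0.11, adjusted p = 0.178). Pfkl had 148, 165 and 140 CPM with compound D against 193, 225 and 250 CPM, without overlap, at -0.56 (SE 0.22, adjusted p = 0.191). Tpi1 had 540, 544 and 581 CPM against 1000, 1040 and 1060 CPM, the clearest gap among the enzymes, at -0.90 with an SE of 1.21 that the 0 in condition 3 widens. Without that library and the 24 h compound E library of preparation 1, these 3 passed as lower with Pfkm still higher (3.35% of all genes called higher): Gpi at -0.60 (adjusted p = 0.0306), Pfkl at -0.56 (0.0306) and Tpi1 at -0.89 (0.0377), against 3.56% of all genes called lower in that fit. Without the condition 3 library alone, Pfkm was the 1 call (2.14% of all genes called higher).

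None of the 9 HIF targets passed for compound D. Bnip3 had 536, 267 and 411 CPM against 747, 593 and 639 CPM, without overlap, at -0.71 (SE 0.32, adjusted p = 0.273). Adm had 50, 12.8 and 41.1 CPM against 61.2, 50.3 and 87.8 CPM, lower in each preparation, at -0.94 (SE 0.53, interval -2.06 to 0.18). Slc2a3 had 3.32, 0.95 and 2.14 CPM against 3.84, 3.63 and 6.93 CPM, at -1.12 (SE 0.42, adjusted p = 0.175). In the other direction, Pdk2 had 14.6, 25.7 and 11.9 CPM against 8.63, 11.1 and 9.1 CPM, without overlap, at 0.83 (SE 0.27, adjusted p = 0.107). Pklr had 62, 96.5 and 57.5 CPM against 45.4, 54.1 and 37.8 CPM, again without overlap, at 0.64 (SE 0.19, adjusted p = 0.0735).

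With compound E at 24 h (preparations 1 and 2), 0 members and 0 of all 12576 genes passed against 24 h GLT by edgeR (0% of genes), 813 genes and 1 member had an unadjusted p below 0.05, and DESeq2 called 0. The members' median difference was 0.21 against 0.04 over all genes. All 14 glycolytic enzymes had a difference above 0, a direction that turned for many members with scaling: by library size alone 8 of 34 members were above 0 in place of 24, while all genes shifted to a median of -0.36. Relative to that median, 22 members were above it, and 23 with TMM scaling. The 2 libraries were unlike. Aldoa had 2330 CPM in preparation 1 and 1260 in preparation 2, against 1040 and 1210 CPM in 24 h GLT, and its difference was 0.68 (interval 0.01 to 1.35, adjusted p = 0.566). Adm had 132 and 55 CPM against 61.2 and 50.3 CPM, at 0.50 (interval -0.77 to 1.76). Pfkm, with 67 and 69.9 CPM against 54.3 and 74.3 CPM, was at 0.06 (interval -0.28 to 0.39).

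Compounds D and E were compared directly at the matched dose of 300 nM and time of 24 h, the only pair of compounds in the study. Of the members 1 was higher and 1 lower with compound E, against 1.83% and 1.18% of all genes, with p adjusted over all genes. Gpi had 782 and 469 CPM with compound E and, in the same preparations, 270 and 319 CPM with compound D, and was 1.09 higher (SE 0.26, interval 0.55 to 1.64, adjusted p = 0.0306). Pfkm had 67 and 69.9 CPM with compound E against 92.2 and 122 CPM, and was lower by a log2 difference of -0.62 (SE 0.16, interval -0.97 to -0.28, adjusted p = 0.0488). With library size as the only scaling neither passed, with Gpi at 0.63 (adjusted p = 0.208) and Pfkm at -1.01 (adjusted p = 0.0616). Both calls were lost without the 24 h compound E library of preparation 1, at 0.47 for Gpi (adjusted p = 0.539) and -0.70 for Pfkm (0.174), when 0 members passed and 0.366% of all genes were called.

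Without the condition 3 library of preparation 2, 5 members differed between the compounds: Eno1 (0.97), Gpi, Pfkl (0.89) and Tpi1 (1.20) were higher with compound E and Pfkm was lower, against 2.33% and 1.34% of all genes. The members' median was 0.455 with all libraries, against 0.00272 over all genes, and by library size alone 0.04 against -0.39. Adm was 1.44 higher with compound E (interval 0.19 to 2.69, adjusted p = 0.206) and Aldoa 1.01 higher (interval 0.34 to 1.68, adjusted p = 0.0991). For Hif1a the interval was -0.52 to 0.44, for Vegfa -0.46 to 0.63 and for P4ha1 -0.65 to 0.60, none of which passed.

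**Figure D5:**
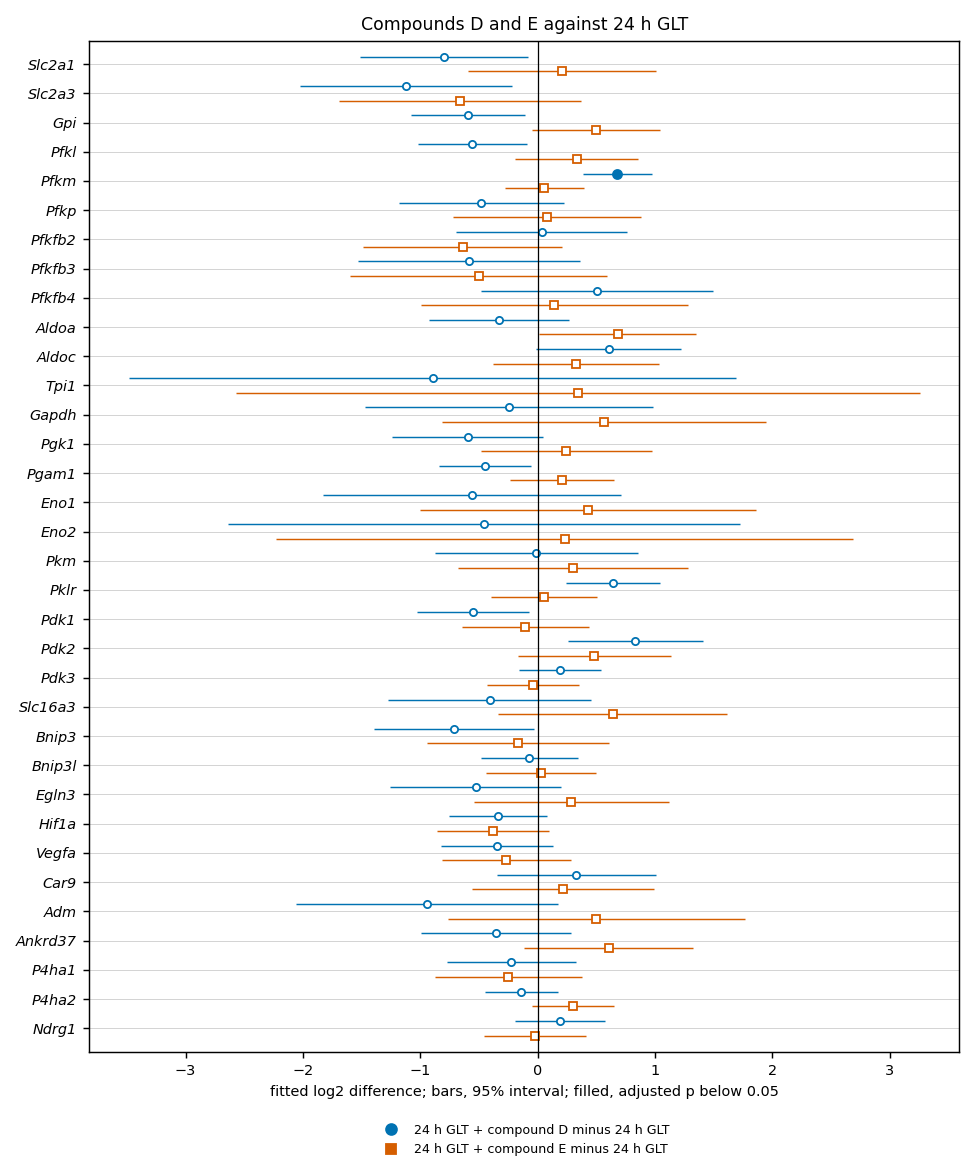
Fitted log2 difference (x axis) of each member between 24 h GLT with a compound and 24 h GLT alone, with bars for the 95% interval and filled symbols for an adjusted p below 0.05. For compound D most members lie left of 0 and Pfkm, the 1 call, to the right; for compound E the 14 enzymes lie right of 0 and no interval is filled as a call.

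At 3 h, GLT with compound D against 3 h control gave 0 member calls by edgeR, against 0.103% of all genes. An unadjusted p below 0.05 was found for 0 members and 817 of all 12576 genes. DESeq2 called 0 members and 108 genes. Gapdh had 566, 736 and 914 CPM in 3 h control and 667, 1040 and 682 CPM with compound D, and the groups overlapped. Against condition 2, which is 3 h GLT by the sheet and the 24 h control by the records, 0 members passed (0.493% of all genes). Here 1 member and 849 of all 12576 genes had an unadjusted p below 0.05, and DESeq2 called 0 members and 165 genes. The nearest was Slc2a1, with 32.8, 45.9 and 58.1 CPM with compound D against 80.6, 84.8 and 144 CPM in condition 2. These groups did not overlap, at -1.15 (SE 0.34, adjusted p = 0.246). By library size alone 29 of 34 members were above 0 in this comparison in place of 13. That scaling also moved the median of all genes to 0.31. Relative to the median of all genes, 13 members were above it with either scaling.

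Against condition 3, which is 3 h GLT by the records and the 24 h control by the sheet, 1 member was higher and 1 lower with compound D at 3 h, against 3.99% and 2.94% of all genes. Pfkfb4, another bifunctional regulator and known HIF target, had 2.15, 0.361 and 3.42 CPM in condition 3 and 11.9, 4.88 and 7.37 CPM with compound D. The groups did not overlap, and the lowest value came from the library that stood apart. The difference was 2.12 (SE 0.48, 4.34-fold, adjusted p = 0.0181), and without that library 1.61 (adjusted p = 0.0338). Ndrg1 had 487, 522 and 380 CPM with compound D against 736, 938 and 633 CPM, without overlap, at -0.74 (SE 0.18, adjusted p = 0.0241), and -0.57 (adjusted p = 0.0949) without that library. In that fit Eno2 at -1.12 (adjusted p = 0.0274) and Pfkl at -0.85 (0.0486) passed as lower beside Pfkfb4, against 2.3% of all genes called higher and 1.6% called lower. The members' median was -0.37, with 26 of 34 below 0, against -0.00415 over all genes.

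Compound E at 3 h, with 1 library (preparation 2), allowed no test and is set beside the libraries of its preparation in 3 h control, condition 2 and 3 h compound D; condition 3, whose library stood apart, is left out. Slc2a1 had 134 CPM there, against 67.9 CPM in 3 h control, 84.8 in condition 2 and 45.9 with compound D at 3 h. Slc16a3 had 18.4 CPM against 11.7, 12.6 and 8.83 CPM, and Pfkfb3 22.1 CPM against 11.4, 14.3 and 8.86 CPM. These 3 genes were highest in it among the 4 libraries, and so were Slc2a3, Gpi, Pfkl, Pfkp, Aldoa, Tpi1, Pgk1, Eno1, Pdk1, Adm and Ankrd37. Bnip3 (291 CPM against 366, 273 and 294) and Gapdh (1000 against 736, 933 and 1040) lay within the range of the other libraries, and further members were not highest in it either. Egln3, at 19.3 CPM, was above 15.5, 11.4 and 11.8 CPM.

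The members without a call in any comparison spanned different ranges over the 21 libraries. Pkm, the pyruvate kinase gene of most tissues, ran from 1390 to 3390 CPM outside the library that stood apart, where it had 456 CPM. Pgam1, a phosphoglycerate mutase gene, ran from 295 to 833 CPM, and Aldoc from 3.41 to 11.5 CPM. Pfkfb2 ran from 47.8 to 194 CPM, with its lowest value in the 24 h compound E library of preparation 1, and Pdk3 from 19.8 to 36.7 CPM, the narrowest span of all members by highest over lowest (1.86-fold). P4ha2, which encodes the sister subunit of P4ha1, spanned 72.6 to 138 CPM (1.91-fold), and Bnip3l 67 to 149 CPM. Car9, a membrane carbonic anhydrase that is a standard marker of hypoxia, stayed at 0.436 to 1.2 CPM (10 counts at the lowest) in every library. Ankrd37 ran from 9.34 to 29.1 CPM and Vegfa from 601 to 1440 CPM. Among the called members, Adm ran from 4.93 to 132 CPM (26.7-fold), the widest span of all members once the library that stood apart is left out.

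Genes of the same pathways outside the list were counted in 2 further lists, 30 tested genes of glycolysis and pyruvate metabolism and 38 of the hypoxia pathway. Against condition 2, 24 h GLT had 3 of the 30 higher and 1 lower (10% and 3.33%, against 3.63% and 4.89% of all genes), with Ldha, which makes lactate, at 1.89 (SE 0.47, adjusted p = 0.0244; 83.1 against 311 CPM on average) and the hexokinase gene Hk1 at -1.17 (SE 0.31, adjusted p = 0.0293). Of the 38 hypoxia genes 7 were higher and 3 lower (18.4% and 7.89%, beside the same shares of all genes), with Gys1, the muscle glycogen synthase gene, at 1.74 (SE 0.32, adjusted p = 0.00513), Stc2, a stanniocalcin gene, at 3.16 (SE 0.59, adjusted p = 0.00602), Kdr at -1.78 (SE 0.37, adjusted p = 0.0108) and Ddit4, an mTOR inhibitor gene, at -1.17 (SE 0.26, adjusted p = 0.0136). Kdr and Flt1, which are receptors for Vegfa, are also endothelial markers, whose summed level moved with these groups as given above. In 24 h against 3 h with compound D, 4 of 38 hypoxia genes were higher and 4 lower (10.5% each, against 3.07% and 3.05% of all genes), again with Gys1 (1.25, SE 0.32, adjusted p = 0.0306) and Stc2 (2.28, SE 0.58, adjusted p = 0.0322) higher and Kdr (-1.81, SE 0.37, adjusted p = 0.0116) lower.

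Ldhb, the heart-type lactate dehydrogenase gene, was called in more of these comparisons than any other gene of the glycolysis list. It was higher in condition 2 than in 3 h control (2.14, SE 0.27, adjusted p = 0.000442; means of 88 and 20.7 CPM), lower with compound D than with GLT alone at 24 h (-1.16, SE 0.26, adjusted p = 0.0225), and higher with compound E than with compound D (1.39, SE 0.29, adjusted p = 0.0175). Compound D at 24 h also had Eno3, the muscle enolase gene, higher (1.31, SE 0.26, adjusted p = 0.0121) and Slc16a1, a monocarboxylate transporter gene, lower (-1.50, SE 0.40, adjusted p = 0.0482) than GLT alone. In the hypoxia list Cited2, which encodes a competitor of HIF, and Epas1, which encodes HIF-2 alpha, were lower with compound D (-1.39, SE 0.32, adjusted p = 0.0253, and -1.44, SE 0.38, adjusted p = 0.0472). Counted by direction, compound D at 24 h had 1 of 30 higher and 2 lower in the first list (3.33% and 6.67%) and 0 of 38 higher and 2 lower in the other (0% and 5.26%), where 1.96% of all genes were higher and 2.12% lower.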

How the data were processed

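The deposited values are raw counts of reads per gene, not normalized, for 17025 genes in 21 libraries. Per the labels' protocols, the authors aligned 100 bp paired-end reads to the rn5 build (TopHat2 2.0.3, Bowtie2 2.0.0), counted them with HTSeq, and modelled variance-stabilized values with donors as a random effect. Strand setting and annotation are not given in the sources used here. Not used were 5 entries that name no gene: reads outside genes (10.3% to 18.7% of a column), with more than 1 alignment (4.92% to 23.4%), ambiguous (0.161% to 2.32%) and others.

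Tests on these counts used edgeR 4.0.16 (R 4.3.3): TMM scaling, filterByExpr (12576 genes), 1 fit of all 21 libraries with terms per condition and per preparation, the 2-sided quasi-likelihood test, and Benjamini-Hochberg adjustment over all genes with a threshold of 0.05. SE is the log2 difference divided by the root of the F statistic. The script was tested on simulated data. Conditions 2 and 3 carry different names in the sample records and the deposited sheet for 6 libraries, and coefficients per condition number give both readings from 1 fit.

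The preparation number marks shared pooled islets per the labels. Residuals of libraries of 1 preparation had mean correlations of 0.194, 0.373 and 0.425, with lowest pairs of -0.119, 0.0934 and 0.158, and the preparation was kept as a block because of the labels. Members and lists were chosen with earlier results of these data known. Every member is named, those called in at least 1 comparison get their value per library, and of the further lists up to 4 called genes per comparison may be named, by smallest adjusted p. Some members without a call (Aldoa, Aldoc, Pdk1, Pfkfb3, Slc2a1, Hif1a and others) were also given per library, chosen after their values were seen. Gpi stood in both the member list and the list of further glycolysis genes and was counted as a member. Promoter windows came from RefSeq GRCr8.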

Additional observations from a re-analysis of the deposited data

How the results depend on the processing

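The 17 single-member calls were rerun under 13 alternatives each (221 in all). The direction held in 221 of 221, and the call in 142. The call was lost in 79, the cause of which was not tested beyond the fewer libraries that some alternatives use. Without the replicate block, member calls became 0 for compound D against GLT at 24 h (all genes 220 against 513), 0 for compound E against compound D, 0 for compound D at 24 h against 3 h and 1 for 3 h compound D against condition 3, and the block changed no other count of member calls by over 1.5 times. With library size as the only scaling they were 0, 0 and 0 in those first 3 comparisons, 1 for 24 h GLT against condition 3 and 0 for 3 h compound D against condition 3. DESeq2 1.42.0 gave 2, 5 and 5 in the first 3 (904, 841 and 1328 genes in all, against 513, 378 and 769). It gave 1 for condition 3 against 3 h control (387 genes in all) and 6 for 3 h compound D against condition 3 (1429 genes in all). With no filter on low counts, compound E against compound D had 1.

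With only the libraries of the groups compared, the counts were 0 for compound E against compound D, 8 for compound D at 24 h against 3 h, 2 for 24 h GLT against condition 3, 18 for 24 h GLT against condition 2, 1 for condition 2 against 3 h control, 2 for 3 h compound D against condition 2 and 0 for it against condition 3. The 8 came with 1885 of all genes called, against 769 in the main fit. For the 18 no count over all genes is given here. Leaving out 1 preparation gave ranges of 0 to 1 (compound D against GLT), 0 to 12 (compound D, 24 h against 3 h), 0 to 1 (3 h compound D against 3 h control), 0 to 3 (24 h GLT against condition 3), 0 to 14 (24 h GLT against condition 2), 0 to 2 (condition 2 against 3 h control), 0 to 10 (condition 3 against 3 h control) and 0 to 17 (3 h compound D against condition 3). Calls over all genes moved too, from 0 to 234 for the first of these and from 9 to 798 for the second. For the others the counts over all genes are not given here, so those ranges are not a result about the members. Without preparation 1 or 2 the compound E arm has 1 library, so no counts are given for it there. Without preparation 3, 0 members passed for compound E against GLT or against compound D (0 and 101 of all genes). For compound D against GLT at 24 h, the 1 member called without preparation 2, like the 1 called with only the groups compared, was not Pfkm and was lower.

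Alternatives chosen after seeing the data left out 2 libraries or added a term. Without the condition 3 library of preparation 2, counts were 5 for compound E against compound D, 2 for compound D at 24 h against 3 h, 0 for 24 h GLT against condition 3 and 11 for 24 h GLT against condition 2. Without the 24 h compound E library of preparation 1 they were 2 for compound D at 24 h against 3 h (8.97% of all genes called) and 6 for 3 h compound D against condition 3 (9.77%). Without both they were 4 for compound D against GLT (6.91% of all genes called), 9 for compound D at 24 h against 3 h (11.4%), 13 for 24 h GLT against condition 2 (13.1%), 4 for condition 3 against 3 h control (0.669%) and 7 for 3 h compound D against condition 3 (7.21%). A term for libraries with more than 1.3% ambiguous reads gave 0 for compound E against compound D. The cause of these moves was not tested. Depth limited Car9 most, at 10 counts in its lowest library.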
